A study of Mus musculus with 10 samples.

Results

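The cytoplasmic ribosomal protein genes and their paralogues were followed on 10 Affymetrix arrays of mouse cells. Members were the genes whose single platform symbol begins with Rpl or Rps followed by a number or by p, without the S6 kinases, which share the letters but phosphorylate proteins. This gave 50 of the 18193 genes measured, each read on the probe set that was brightest on average over all 10 arrays. Of the 50, 42 were core ribosomal protein genes, 22 of the large subunit with its stalk and 20 of the small subunit. The -like paralogues numbered 6 and were kept apart. The last members were 1 pseudogene (Rps15a-ps6) and 1 gene of a binding protein (Rps19bp1).

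The study asked whether Oct4 alone can reprogram adult neural stem cells (NSC). Per the labels, 3 arrays held NSC differentiated from induced pluripotent stem (iPS) cells made with Oct4 alone, 3 held the iPS cells, and 4 held NSC taken from adult brain. Every group traced back to adult brain of mice that carry an Oct4-eGFP reporter (OG2) and the Rosa26 neo/lacZ marker, crossed with ICR females, so the brain NSC bear both transgenes too. The iPS cells had been infected with a pMX-based retrovirus encoding mouse Oct4, picked as GFP-positive colonies without drug selection, and grown with LIF on irradiated embryonic fibroblasts, whose RNA can enter a bulk sample. The cells titled iPS-derived NSC carry the same vector and were differentiated with a published protocol that the authors modified. The labels do not say how many colonies or animals stand behind a group.

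The labels and the defining markers disagreed, so groups are named here by their sample titles. Pou5f1, which encodes Oct4, had 13.41, 13.00 and 13.45 in the arrays titled iPS-derived NSC, 4.49, 4.78 and 4.72 in those titled iPS, and 4.50 to 4.62 in brain NSC, as deposited RMA values on the log2 scale. The mean of 8 pluripotency markers was 11.88 to 11.99, 4.81 to 4.89 and 4.84 to 4.93 on the arrays of these groups, and Nanog, Zfp42 and Tdgf1 were below the arrays' lower quartile (4.22 to 4.41) in the arrays titled iPS and in brain NSC. The mean of 6 neural stem cell markers ran the other way, at 5.74 to 5.86, 12.29 to 12.39 and 12.17 to 12.41. Fabp7 of radial glia, for one, was at 4.23 to 4.65, 14.15 to 14.19 and 14.31 to 14.52, and the neural factor Olig2 at 6.13 to 6.87, 12.73 to 12.84 and 12.16 to 12.91. Every comparison below rests on arrays whose markers go against their titles. The mean of 8 feeder fibroblast markers was 5.798 to 6.764 in the arrays titled iPS-derived NSC, 4.75 to 4.86 in those titled iPS and 4.72 to 4.80 in brain NSC. In such bulk samples fewer cells of a type and less RNA per cell cannot be told apart.

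Ribosomal proteins surround the ribosomal RNAs in the small and the large subunit, and their genes are transcribed strongly in growing cells. Their mRNAs begin with a terminal oligopyrimidine (TOP) tract, through which the mTOR pathway sets their translation together. A few genes have a close paralogue that can take the place of the usual protein in some tissues, such as Rpl39l in male germ cells and Rpl3l in muscle.

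The sequences at the starts of these genes are given first, from RefSeq promoter windows on GRCm38.p6, because the members are defined by name and their starts were not part of that choice. Windows were found for 43 of the 50 members, among them 37 core genes with 43 windows of 300 bases and 5 paralogues with 7. The letters CGGAAG, the motif of ETS family factors, stood on either strand in 62.8% of core windows, 42.9% of paralogue windows and 16.9% of all 32851 windows. The letters CTTTC, part of a TOP tract, were read on the gene's strand only, within 15 bases on each side of the start, and were found in 23.3%, 14.3% and 4.05%. Neither motif contains the other. A core window held a median of 22 CpG sites, a paralogue window 17 and any window 7. The letters CGGAAG hold a CpG on either strand, so their shares and these medians are not independent. Among paralogues the motif stood in 3 of 7 windows, those of Rpl39l and Rps27l, and Rps27l has more than 1 window. The paralogues Rpl39l and Rpl7l1 that were higher in the arrays titled iPS-derived NSC, and Rpl39, the parent of Rpl39l, are shown from 170 bases before to 30 after the start, with CGGAAG or its reverse complement in capitals. They lie at chr16:10170058-10170257 on the plus strand, chr17:46782627-46782826 on the minus strand and chrX:37085193-37085392 on the minus strand.
Rpl39l: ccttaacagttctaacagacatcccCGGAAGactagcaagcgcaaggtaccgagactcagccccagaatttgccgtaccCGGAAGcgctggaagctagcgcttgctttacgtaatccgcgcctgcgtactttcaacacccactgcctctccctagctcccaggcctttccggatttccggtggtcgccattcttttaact
Rpl7l1: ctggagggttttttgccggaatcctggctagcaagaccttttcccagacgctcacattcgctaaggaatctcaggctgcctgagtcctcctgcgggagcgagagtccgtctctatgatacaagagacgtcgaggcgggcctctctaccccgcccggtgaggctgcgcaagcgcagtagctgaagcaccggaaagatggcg
Rpl39: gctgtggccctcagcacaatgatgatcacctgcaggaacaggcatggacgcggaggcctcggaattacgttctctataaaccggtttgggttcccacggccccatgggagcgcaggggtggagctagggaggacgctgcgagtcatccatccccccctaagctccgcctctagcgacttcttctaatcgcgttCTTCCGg
Within these 200 bases Rpl39l held the motif 2 times, Rpl39 held it 1 time, and Rpl7l1 held 0.

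Start windows of 30 bases show the TOP letters in capitals for 3 core genes with bright probe sets. They lie at chr7:141447636-141447665 on the plus strand for Rplp2, chr2:39005117-39005146 on the minus strand for Rpl35 and chr17:27635230-27635259 on the minus strand for Rps10.
Rplp2: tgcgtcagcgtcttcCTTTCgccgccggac
Rpl35: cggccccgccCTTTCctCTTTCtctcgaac
Rps10: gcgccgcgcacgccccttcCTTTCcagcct
A match of letters describes the sequence and does not show a bound factor or a start used in these cells.

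Differences are given as log2 differences with the standard error (SE) of limma, and p values of genes were adjusted over all 18193 genes. Other probe sets of a gene, and counts of probe sets, rest on a separate fit of the 34945 single-symbol probe sets. Probe sets of several symbols were fitted together with those. The word called is used where a gene's adjusted p was under 0.05 and it differed at least 2-fold. Of the 50 members, 4 were called in the arrays titled iPS-derived NSC over those titled iPS, all 4 higher (Rps4l, Rpl39l, Rpl7l1 and Rpl12), where 25.3% of all genes were called. Without the limit on fold, 12 members passed, 10 higher and 2 lower, and 61.1% of all genes did. Centring the arrays on their medians gave 17 higher and 1 lower. The median of all genes on an array was 6.65 to 6.66 in the arrays titled iPS-derived NSC, 6.75 to 6.78 in those titled iPS and 6.72 to 6.81 in brain NSC. Over brain NSC, 5 members were called in the same arrays, these 4 and Rps25, against 25.4% of all genes. There 15 passed without the limit on fold, 13 higher and 2 lower, or 21 higher and 0 lower after median centring, against 62.7% of all genes. These 2 comparisons share the arrays titled iPS-derived NSC.

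Of the 6 paralogues 3 were called in each of these comparisons, and of the 42 core genes 1 and 2. The shares of all genes called were 25.3% and 25.4%. Without the limit on fold, 4 paralogues were higher and 1 lower over the arrays titled iPS, and 5 higher and 1 lower over brain NSC. By that measure 61.1% and 62.7% of all genes passed in either direction. Rps4l, a copy related to the small-subunit gene Rps4x that RefSeq lists as a transcribed pseudogene, had 12.82, 12.80 and 12.74 in the arrays titled iPS-derived NSC, 4.03, 4.21 and 3.93 in those titled iPS, and 3.93, 3.93, 3.67 and 4.37 in brain NSC. The first 3 arrays stood far above the other 7, which lay near or below the lower quartile of their arrays. Rps4l differed by 8.73 ± 0.15 (SE; adjusted p = 1.48e-14) over the arrays titled iPS and by 8.81 ± 0.14 (adjusted p = 6.25e-15) over brain NSC. As no detection calls were used here, differences from such low levels are not exact folds. Rps4x, which encodes a small-subunit protein of the same family, had 14.20 to 14.25, 14.28 to 14.31 and 14.22 to 14.29 in the 3 groups. On this brightest probe set it had no adjusted p under 0.05. Another probe set of Rps4x, with a mean of 5.95, carries the suffix for probe sets that can bind related sequences. By limma that one was higher by 0.40 ± 0.14 over the arrays titled iPS (adjusted p = 0.0274) and by 0.59 ± 0.13 over brain NSC (adjusted p = 0.00167).

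Rpl39l, the germ-cell paralogue of the small large-subunit protein Rpl39, showed the same order. It had 12.04, 11.82 and 12.14 in the arrays titled iPS-derived NSC, 3.97, 4.19 and 3.91 in those titled iPS, and 4.05, 4.11, 4.11 and 4.07 in brain NSC. The first 3 arrays again stood above the other 7, and Rpl39l rose by 7.97 ± 0.11 (adjusted p = 2.14e-15) over the arrays titled iPS and by 7.91 ± 0.10 (adjusted p = 1.07e-15) over brain NSC. The parent Rpl39 had 7.73, 7.55 and 7.51 in the arrays titled iPS-derived NSC, 7.42, 7.72 and 7.52 in those titled iPS, and 7.43 to 7.65 in brain NSC. The 3 groups of Rpl39 overlapped, and its differences of 0.05 ± 0.11 and 0.03 ± 0.10 did not pass. They did pass when the values were quantile normalized again, at 0.31 and 0.27. Rpl39 was read on 1 single-symbol probe set, with a mean of 7.57. Whether that probe set reads the full level of its mRNA was not tested.

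Rpl7l1, which is related to the large-subunit gene Rpl7, was called with a smaller difference. It had 11.87, 11.84 and 11.78 in the arrays titled iPS-derived NSC, 10.64, 10.59 and 10.66 in those titled iPS, and 10.65, 10.77, 10.80 and 10.54 in brain NSC. It rose by 1.20 ± 0.09, or 2.30-fold (adjusted p = 8.08e-08), over the arrays titled iPS and by 1.14 ± 0.09, or 2.21-fold (adjusted p = 5.82e-08), over brain NSC. Its other probe sets gave 1.13 and 0.98 over the arrays titled iPS, and 1.27 and 1.01 over brain NSC. Rpl7 itself had 14.06 to 14.15, 13.89 to 13.95 and 13.89 to 14.08, and its differences of 0.18 ± 0.09 and 0.10 ± 0.08 did not pass.

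The other 3 paralogues differed by less than 2-fold. Rps27l, a p53 target related to Rps27, had 13.14, 13.22 and 13.27 in the arrays titled iPS-derived NSC, 12.78, 12.86 and 12.89 in those titled iPS, and 12.79 to 12.90 in brain NSC. It rose by 0.37 ± 0.09 (adjusted p = 0.00221) and 0.38 ± 0.08 (adjusted p = 0.000974), with no overlap of the arrays. Rpl22l1, the paralogue of the RNA-binding protein Rpl22, had 13.09, 13.01 and 13.10 in the arrays titled iPS-derived NSC, 13.48, 13.33 and 13.42 in those titled iPS, and 13.24, 13.26, 13.29 and 13.26 in brain NSC. It fell by 0.35 ± 0.09 relative to the arrays titled iPS (adjusted p = 0.00316). Relative to brain NSC its difference was -0.20 ± 0.08 (adjusted p = 0.0476), which no longer passed without any 1 of the 10 arrays. Rpl3l, the muscle paralogue, stayed between 3.74 and 4.56 on all arrays, around the lower quartile. Its difference over brain NSC was 0.42 ± 0.13 (adjusted p = 0.0115), and it did not pass without replicate 3 of the arrays titled iPS-derived NSC (0.33) or after quantile normalization (0.29). Its parent Rpl3 was not measured under a single symbol.

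For the other parents, Rps27 had 6.99 to 7.16, 7.01 to 7.24 and 6.80 to 7.13 in the 3 groups and did not pass, except over brain NSC after quantile normalization (0.36) or median centring (0.25). Rps27 was read on 1 single-symbol probe set, with a mean of 7.04. Whether that probe set reads the full level of its mRNA was not tested. Rpl22 was higher over brain NSC by 0.20 ± 0.08 on its brightest probe set (adjusted p = 0.0429), which no longer passed in 12 of 20 other ways of processing the values. In the separate limma fit of probe sets, the same probe set did not pass (adjusted p = 0.0523). Another probe set of Rpl22 was lower, at -1.45 ± 0.13 relative to the arrays titled iPS and -1.31 ± 0.12 relative to brain NSC. A further probe set of Rpl22 was higher, by 0.33 ± 0.09 over brain NSC (adjusted p = 0.00845), and its difference of 0.19 ± 0.10 over the arrays titled iPS did not pass. The brightest probe set and the lower one both carry the suffix for probe sets that can bind related sequences, and the further one does not.

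**Figure D1:**
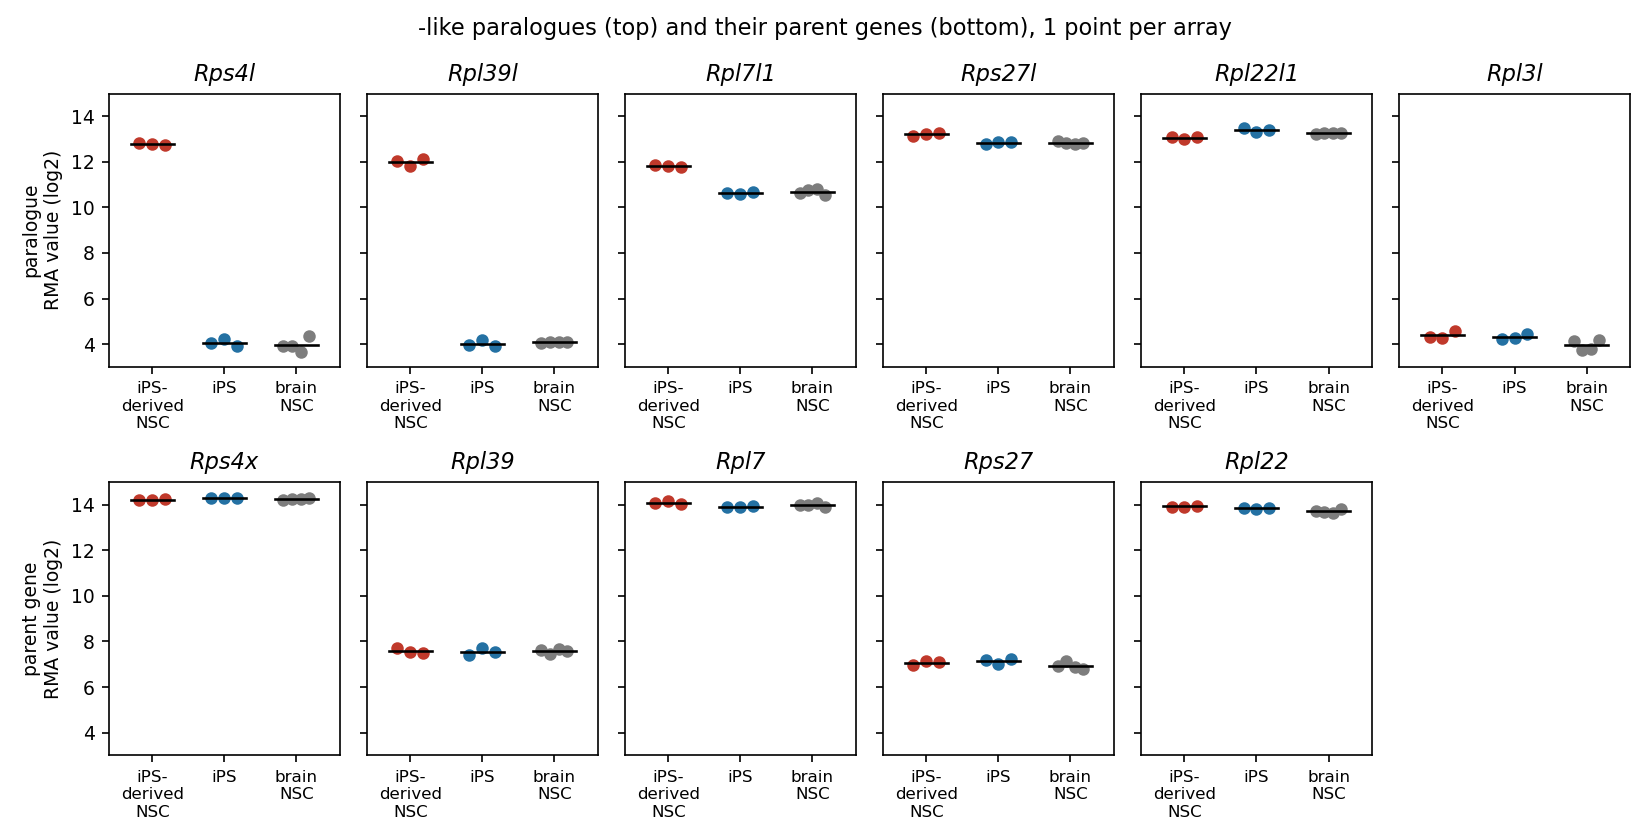
Deposited RMA values (log2) of the 6 -like paralogues (top) and their measured parent genes (bottom); each point is 1 array, the line is the group mean, and groups are named by sample title. Rps4l and Rpl39l stand between 11.82 and 12.82 in the arrays titled iPS-derived NSC and between 3.67 and 4.37 in the other 7 arrays, while the groups of Rpl39 overlap. Rpl39 and Rps27 were each read on 1 single-symbol probe set with a mean under 12.

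In all 6 paralogues the arrays titled iPS and brain NSC did not differ beyond the test: the differences lay between -0.06 and 0.35, with 0 of 6 past an adjusted p of 0.05 by limma and 1 of 6 at an unadjusted p under 0.05. The order of levels for Rps4l, Rpl39l, Rpl7l1 and Rps27l was the arrays titled iPS-derived NSC first, and then both other groups within their spread. The feeder fibroblast markers were higher in the same arrays, and their part in these differences was not tested. The pluripotency markers were higher in the same arrays too.

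Most core genes were read on probe sets near the top of the scale and moved little. The brightest probe set of an array stood at 15.14 to 15.17 in the arrays titled iPS-derived NSC and 14.77 to 14.80 in those titled iPS. In brain NSC it stood at 14.72 to 14.86. The lower quartile of an array was 4.37 to 4.41, 4.22 to 4.27 and 4.22 to 4.28 in these groups. In 33 of the 42 core genes the mean over the 10 arrays was at least 12, and their values ran from 13.37 to 14.60 over all arrays. The range of such a gene over the 10 arrays was 0.106 to 0.644, with a median of 0.237, and was under 0.3 in 23 of the 33. The smallest range was that of Rps2, with 14.46 to 14.53 in the arrays titled iPS-derived NSC, 14.46 to 14.51 in those titled iPS and 14.46 to 14.56 in brain NSC. Rpl7a and Rps29, the other 2 of the 3 brightest members, ranged over 0.141 and 0.151. Whether probe sets this close to the top of the scale still respond in full to the amount of RNA was not tested.

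The median difference over the 42 core genes was 0.04 in the arrays titled iPS-derived NSC over those titled iPS, beside 0.12 over all genes, and 0.09 over brain NSC, beside 0.13. Quantile normalization moved the median of all genes on an array by up to 0.111, and gave core medians of 0.06 and 0.06, while median centring gave 0.15 and 0.19. Of the core genes, 7 passed an adjusted p of 0.05 over the arrays titled iPS, 6 higher and 1 lower, and 8 over brain NSC, 7 higher and 1 lower. These are 16.7% and 19.0% of the 42, against 61.1% and 62.7% of all genes. Only Rpl12 was called in the first comparison, and Rpl12 and Rps25 in the second. The arrays of the groups did not overlap in 26 of 42 core genes in the first and 16 of 42 in the second, where 69.5% and 61.3% of all genes did not overlap.

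**Figure D2:**
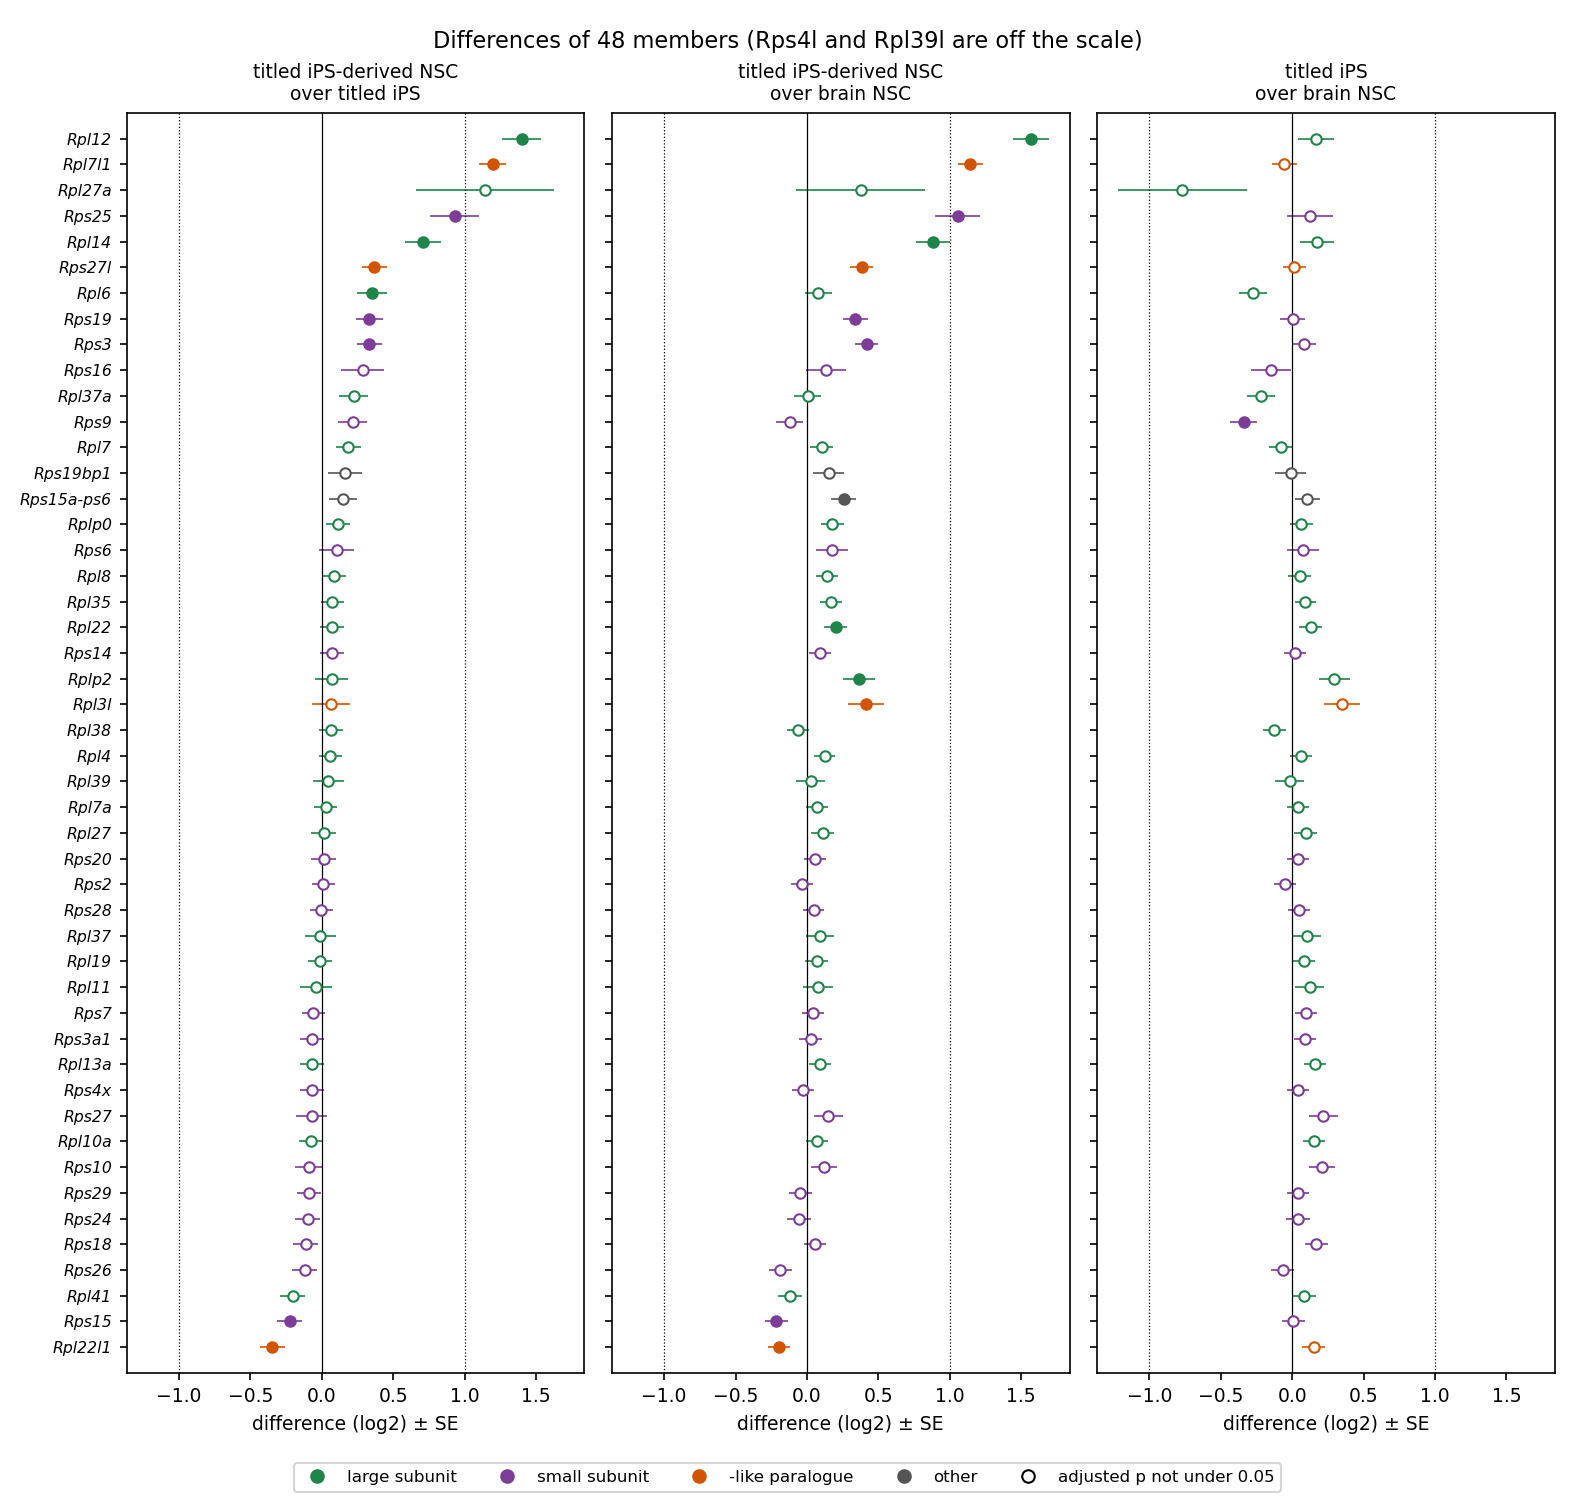
Log2 differences with their SE for 48 members in the 3 comparisons, ordered by the first; filled points have an adjusted p under 0.05, colours mark the subunit, and dotted lines mark 2-fold. Most core members lie within 0.3 of 0, while Rpl12 and Rpl7l1 lie beyond 2-fold in the first 2 panels.

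Among large-subunit genes as read on their brightest probe sets, Rpl12, whose protein sits at the base of the stalk, changed most. It had 10.09, 9.97 and 10.03 in the arrays titled iPS-derived NSC, 8.77, 8.47 and 8.65 in those titled iPS, and 8.41, 8.76, 8.52 and 8.17 in brain NSC. It rose by 1.40 ± 0.14, or 2.64-fold (adjusted p = 6.85e-07), and by 1.57 ± 0.13, or 2.96-fold (adjusted p = 9.33e-08). Rpl12 and Rpl14 were each read on 1 single-symbol probe set, with means of 8.98 and 9.60 over the 10 arrays. Neither has a probe set of at least 12 to set beside it, and whether these read the full level of their mRNAs was not tested. Rpl14 averaged 10.16 ± 0.03 in the arrays titled iPS-derived NSC, 9.45 ± 0.18 in those titled iPS and 9.28 ± 0.20 in brain NSC (SD, n = 3, 3 and 4), and rose by 0.71 ± 0.13 and 0.88 ± 0.12 (adjusted p = 0.000253 and 1.75e-05). Rpl6 rose by 0.35 ± 0.10 over the arrays titled iPS (adjusted p = 0.00887), and its difference from brain NSC was 0.08 ± 0.10.

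Rpl27a, chosen after its values were seen, had the largest spread of the members within a group. Its values were 9.18, 10.21 and 9.60 in the arrays titled iPS-derived NSC, 8.55, 8.43 and 8.57 in those titled iPS, and 9.93, 9.22, 10.28 and 7.72 in brain NSC. Its difference of 1.15 ± 0.48 over the arrays titled iPS did not pass (adjusted p = 0.055). In 9 of the 20 other ways of processing it was called at 1.02 to 1.39, among them a replicate block (adjusted p = 0.00196), a fit of only the groups compared (adjusted p = 0.00064), quantile normalization, median centring, array weights and a trended robust prior. The other 3 left out brain NSC replicate 4 (adjusted p = 0.00121), brain NSC replicate 3 (adjusted p = 0.034) or replicate 1 of the arrays titled iPS-derived NSC (1.39, adjusted p = 0.0453), and the brain NSC arrays enter the shared estimate of the spread.

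The stalk proteins are the acidic proteins to which elongation factors bind. Rplp0 had 14.34, 14.29 and 14.34 in the arrays titled iPS-derived NSC, 14.21, 14.19 and 14.22 in those titled iPS, and 14.06 to 14.21 in brain NSC, and its differences of 0.11 ± 0.08 and 0.18 ± 0.08 did not pass. Rplp2 had 14.43, 14.33 and 14.40 in the arrays titled iPS-derived NSC, 14.33, 14.26 and 14.37 in those titled iPS, and 13.79, 14.18, 13.90 and 14.23 in brain NSC. It rose by 0.37 ± 0.11 over brain NSC (adjusted p = 0.011), and its difference of 0.07 ± 0.12 over the arrays titled iPS did not pass. The third stalk gene, Rplp1, had no probe set of a single symbol.

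Among small-subunit genes, Rps25, whose protein is needed for some internal ribosome entry sites, had 10.75, 10.95 and 10.80 in the arrays titled iPS-derived NSC, 10.08, 9.77 and 9.86 in those titled iPS, and 10.05, 9.85, 9.94 and 9.27 in brain NSC. It rose by 0.93 ± 0.17 (adjusted p = 0.000307) and 1.06 ± 0.16 (adjusted p = 5.16e-05). Rps25 was read on 1 single-symbol probe set, with a mean of 10.13. Brain NSC replicate 4 was the lowest array, and the second difference was 0.89 without it and 1.00 (just under 2-fold) without replicate 2 of the arrays titled iPS-derived NSC. Without replicate 1 of the arrays titled iPS, the first difference was 1.02 and so past 2-fold. Rps3, which lines the mRNA entry channel, had 14.05, 14.08 and 14.12 in the arrays titled iPS-derived NSC, 13.76, 13.77 and 13.73 in those titled iPS, and 13.57 to 13.75 in brain NSC, and rose by 0.33 ± 0.09 and 0.42 ± 0.08 (adjusted p = 0.00489 and 0.000526). Rps19, mutated in Diamond-Blackfan anaemia, rose by 0.33 ± 0.09 and 0.34 ± 0.09. Rps15, which lies near the decoding site, averaged 13.45 ± 0.07, 13.67 ± 0.03 and 13.66 ± 0.07 in these groups (SD) and changed by -0.22 ± 0.09 and -0.21 ± 0.08, with adjusted p values of 0.0402 and 0.0354 that no longer passed in 12 and 10 of the 20 other ways of processing. The core gene with the dimmest reading, Rps16, stayed between 3.28 and 4.14 on its single-symbol probe set, below the lower quartile. It did not pass in either comparison. It was not tested whether the probe sets of Rps25 and Rps16 read the full level of their mRNAs, so a dim reading need not mean little mRNA.

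By subunit, 3 of the 22 large-subunit genes were higher and 0 lower at an adjusted p under 0.05 over the arrays titled iPS, and 4 higher and 0 lower over brain NSC. Their median differences were 0.07 and 0.10. Of the 20 small-subunit genes 3 were higher and 1 lower in both comparisons, with median differences of -0.03 and 0.05. All genes gave 34.6% higher and 26.6% lower in the first comparison, and 36.9% and 25.8% in the second. The test of a difference between the subunits was not run. Rps6, the substrate that names the S6 kinases and a gene chosen after its values were seen, had 9.14, 9.27 and 9.25 in the arrays titled iPS-derived NSC, 9.18, 9.05 and 9.13 in those titled iPS, and 9.23, 9.17, 9.04 and 8.75 in brain NSC. The groups of Rps6 overlapped and it did not pass in any comparison.

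The calls were also counted by the brightness of the probe set. The 42 core genes had 93 single-symbol probe sets, 65 with a mean of at least 12 and 28 below it, and probe sets of 20 genes fell in the lower class. Of the 65 bright probe sets 9 passed in the arrays titled iPS-derived NSC over those titled iPS, 4 higher and 5 lower, and 0 were called. Of the 28 dimmer ones 14 passed, 11 higher and 3 lower, and 3 were called higher and 1 lower. Over brain NSC, 11 bright probe sets were higher and 2 lower, again with 0 called, against 17 higher and 3 lower among the dimmer ones, of which 6 were called higher and 1 lower. The dimmer probe sets called higher over brain NSC belonged to Rpl12, Rps9, Rpl37a, Rps10, Rps3 and Rps25, with differences of 1.06 to 1.57, and the one called lower was that of Rpl22. Among all single-symbol probe sets, 10.2% of the 627 with a mean of at least 12 and 23.9% of the 34318 below it were called over the arrays titled iPS, and 10.0% and 24.1% over brain NSC. Without the limit on fold, 13.8% of the bright core probe sets passed over the arrays titled iPS, beside 52.2% of all bright ones, and 20% beside 56.8% over brain NSC. Of the dimmer core probe sets 50% passed, beside 57.7% of all dimmer ones, and 71.4% beside 59.1% over brain NSC. The test of a difference between these shares was not run. For Rps3, the brightest probe set gave 0.33 and 0.42, a dimmer one 1.06 ± 0.10 and 1.26 ± 0.10, and the dimmest 0.17 ± 0.14, which did not pass, and 0.33 ± 0.13.

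A further 110 probe sets carry a ribosomal protein symbol together with others and so name no single gene. They gave 5 called higher and 1 lower in the arrays titled iPS-derived NSC over those titled iPS, and 8 higher and 1 lower over brain NSC, with 0 called among the 79 that had a mean of at least 12. Among all single-symbol probe sets with a mean of at least 12, 10.2% were called over the arrays titled iPS and 10.0% over brain NSC. Below that mean the shares were 23.9% and 24.1%. The 110 probe sets stand outside the members.

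**Figure D3:**
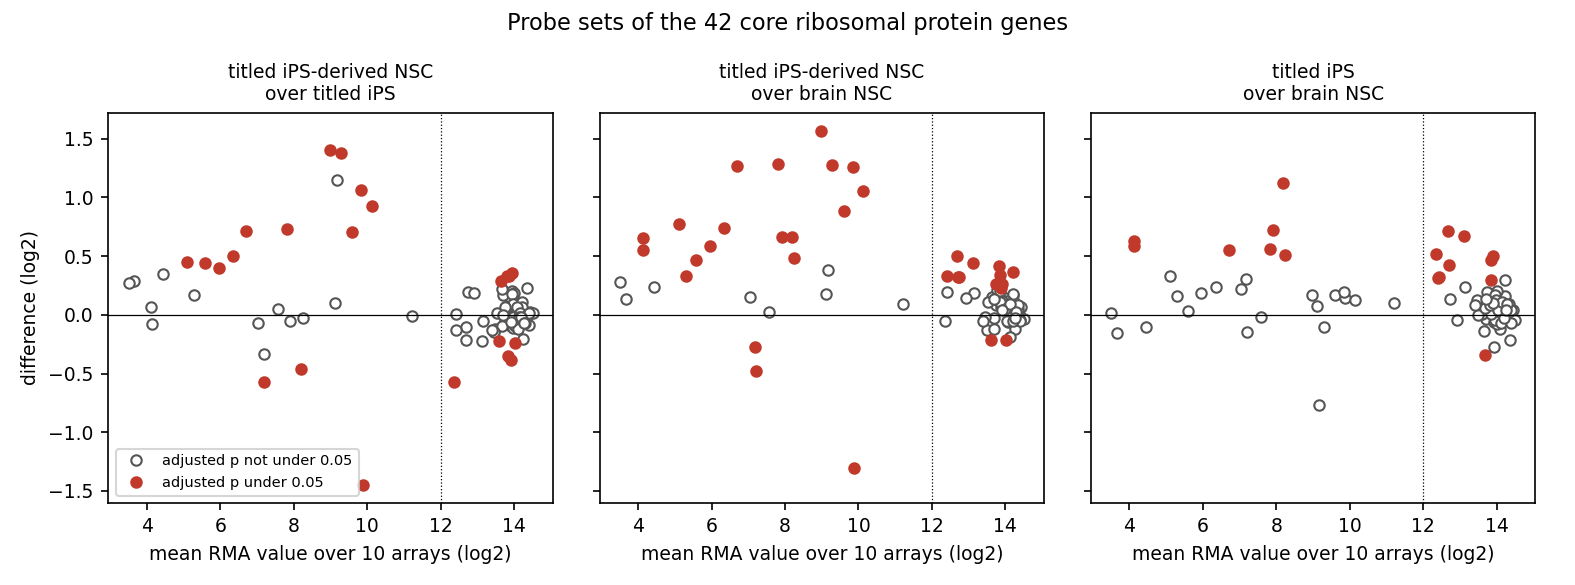
Log2 differences of the 93 probe sets of core genes against their mean RMA value (log2) over the 10 arrays, in the 3 comparisons; red points have an adjusted p under 0.05 and the dotted line marks 12. Right of the line the differences lie between -0.57 and 0.72, while left of it they lie between -1.45 and 1.57.

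Probe sets of 1 gene passed in opposite directions for Rps18, Rps24 and Rps9 in the first comparison and for Rpl22 and Rpl41 in the second, of 23 genes with several probe sets. Rps18, Rps24 and Rpl41, like Rpl37a and Rps10 above, were named after their values were seen. For Rps9 the 3 probe sets gave 0.22 ± 0.10, -0.57 ± 0.11 and 0.73 ± 0.11 in the arrays titled iPS-derived NSC over those titled iPS. For Rps18, 2 bright probe sets gave -0.38 and -0.35 and a dim one 0.50, while its brightest, at -0.11 ± 0.09, did not pass. Ribosomal protein genes are known for many processed pseudogenes of like sequence, and 15 of the 50 members were read on probe sets marked as able to bind related sequences.

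Between the arrays titled iPS and brain NSC, 0 of the 50 members were called, where 1.84% of all genes were, and this comparison shares its arrays with those above. By limma 1 member passed an adjusted p of 0.05, in the lower direction, against 20.4% of all genes in either direction and 9.29% in the lower one, and 7 had an unadjusted p under 0.05. The core median difference was 0.06, beside 0.01 over all genes. The arrays did not overlap in 16 of 50 members, where 28.3% of all genes did not. The member that passed was Rps9, with 13.56, 13.41 and 13.48 in the arrays titled iPS and 13.84, 13.99, 13.80 and 13.65 in brain NSC. It fell by 0.34 ± 0.09 (adjusted p = 0.0222) on that probe set, but its other 2 probe sets were higher by 0.52 ± 0.10 and 0.56 ± 0.11, so no direction can be given for the gene. Leaving out any of 4 arrays (replicates 2 and 3 of the arrays titled iPS, replicates 1 and 2 of brain NSC) left 0 members past the threshold. Without brain NSC replicate 4, 7 members passed and Rpl27a was called lower, at -1.29.

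Brain NSC replicate 4 was the lowest of its group in 7 of the 9 core genes with a mean under 12, and replicate 2 of the arrays titled iPS was the lowest of its group in 7 of 9. The difference between the 3' and the 5' probe sets of Actb, a sign of RNA integrity, averaged 0.515 ± 0.080 in the arrays titled iPS-derived NSC, 0.568 ± 0.088 in those titled iPS and 0.316 ± 0.121 in brain NSC (SD, n = 3, 3 and 4). The part of RNA integrity in the differences of the dimmer probe sets was not tested.

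The 2 remaining members were the pseudogene Rps15a-ps6 and the gene of the Rps19 binding protein. Rps15a-ps6 stayed between 3.53 and 3.88, below the lower quartile, and its difference of 0.26 ± 0.09 over brain NSC (adjusted p = 0.024) was lost without replicate 1 or 3 of the arrays titled iPS-derived NSC or replicate 1 of brain NSC. Rps19bp1 had 10.05 to 10.11, 9.87 to 9.99 and 9.64 to 10.15 in the 3 groups and did not pass.

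Genes that make ribosomes were listed beside those that build them in. RNA polymerase I transcribes the ribosomal RNA precursor, and of its 15 subunits and factors 14 were higher and 0 lower in the arrays titled iPS-derived NSC over those titled iPS at an adjusted p under 0.05, and 7 were called. Over brain NSC 15 of 15 were higher, and 7 were called. Of all genes 34.6% were higher in the first comparison and 36.9% in the second, with 10.8% and 11.3% called higher. The list's median differences were 0.87 and 0.91, beside 0.12 and 0.13 over all genes. Taf1d, a subunit of the selectivity factor of polymerase I, rose by 1.72 ± 0.17 and 2.31 ± 0.16, and Taf1c, another such subunit, by 1.30 ± 0.13 and 1.86 ± 0.12. Polr1b, the second largest subunit of the enzyme, rose by 1.39 ± 0.14 and 1.54 ± 0.13.

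Assembly and ribosomal RNA processing factors showed the same direction. Of 49 measured, 46 were higher and 0 lower over the arrays titled iPS, with 22 called, and 46 were higher and 0 lower over brain NSC, with 32 called. Their median differences were 0.92 and 1.21. Of all genes 34.6% and 36.9% were higher in these comparisons, with 10.8% and 11.3% called higher. Noc3l, a nucleolar factor of large-subunit precursors, had 10.29, 10.45 and 10.36 in the arrays titled iPS-derived NSC, 7.63, 7.85 and 7.64 in those titled iPS, and 7.65 to 8.05 in brain NSC, and rose by 2.66 ± 0.12 and 2.45 ± 0.11. Imp4, of the U3 particle that processes small-subunit RNA, rose by 1.95 ± 0.11 and 2.30 ± 0.10, and nucleolar Rrp1b by 1.91 ± 0.12 and 2.30 ± 0.11. For the arrays titled iPS over brain NSC, 15 were higher and 3 lower with 0 called, and 2 polymerase I genes were higher and 1 lower. In that comparison 11.1% of all genes were higher and 9.29% lower, and 1.84% were called. The difference between these lists and the ribosomal protein genes was not tested.

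**Figure D4:**
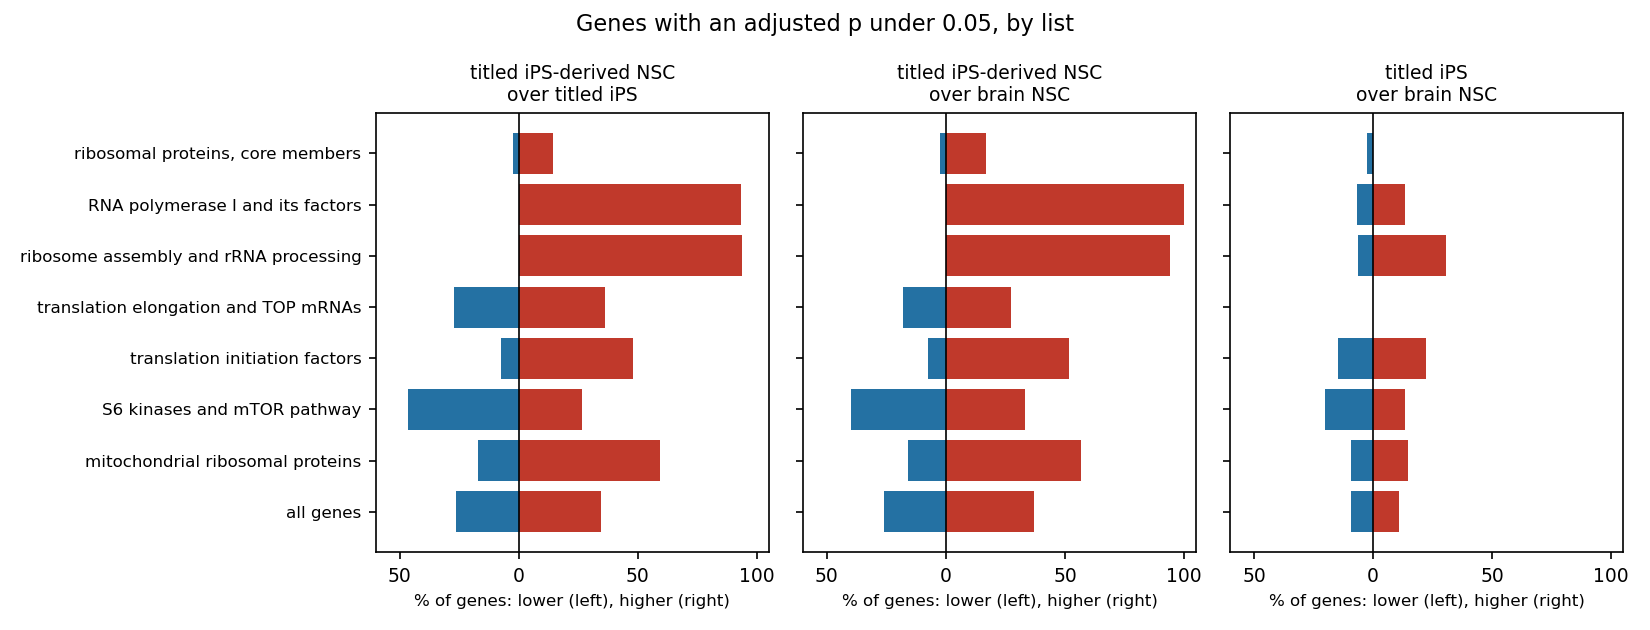
Percent of the measured genes of each list with an adjusted p under 0.05, higher to the right and lower to the left, in the 3 comparisons. In the first panel the bars to the right stand for 14 of 15 genes of RNA polymerase I, 46 of 49 assembly genes and 6 of 42 core ribosomal protein genes, beside 34.6% of all genes.

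Elongation factors and other TOP mRNAs had 0 called of 11 measured in all 3 comparisons. In the arrays titled iPS-derived NSC over those titled iPS 4 were higher and 3 lower, and over brain NSC 3 were higher and 2 lower. Beside these, 34.6% of all genes were higher and 26.6% lower, and 36.9% higher and 25.8% lower. The shares of all genes called were 25.3%, 25.4% and, for the arrays titled iPS over brain NSC, 1.84%. Eef1a1, the main elongation factor, had 14.54 to 14.62, 14.58 to 14.60 and 14.61 to 14.74 in the 3 groups and did not pass. Eef2, which drives translocation, fell by 0.79 ± 0.21 relative to the arrays titled iPS, with 12.93, 12.53 and 12.90 against 13.51, 13.67 and 13.55, and brain NSC spanned both at 12.57 to 13.61. Of 2 ribosomal proteins outside the naming rule, Fau rose by 0.56 ± 0.11 and Rpsa fell by 0.25 ± 0.10 in that comparison, and neither passed over brain NSC. Eef1a1, Eef2, Fau and Rpsa were named after their values were seen.

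Of 27 initiation factors and their regulators, 13 were higher and 2 lower over the arrays titled iPS, with 3 and 1 called, and 14 were higher and 2 lower over brain NSC, with 5 and 1 called. All genes gave 34.6% higher and 26.6% lower in the first comparison, with 10.8% and 14.4% called. They gave 36.9% and 25.8% in the second, with 11.3% and 14.0% called. Eif5a2, a form of the hypusinated factor eIF5A, had 5.78, 6.27 and 6.16 in the arrays titled iPS-derived NSC, 8.69, 8.37 and 8.56 in those titled iPS, and 8.67 to 8.84 in brain NSC, and changed by -2.47 ± 0.13 and -2.65 ± 0.12. Eif1a, which helps scanning, rose by 1.62 ± 0.11 and 1.47 ± 0.10. Eif4ebp1, which holds back the cap-binding factor until mTOR phosphorylates it, rose by 1.52 ± 0.11 and 2.43 ± 0.11. Its relative Eif4ebp2 was the 1 gene of this list called in the arrays titled iPS over brain NSC, at 1.01 ± 0.24 (adjusted p = 0.0109), and it did not pass without replicate 3 of the arrays titled iPS (0.95). In that comparison 1.84% of all genes were called.

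In the S6 kinases and the mTOR pathway, 4 of 15 were higher and 7 lower over the arrays titled iPS, and 5 higher and 6 lower over brain NSC. The shares of all genes were 34.6% higher and 26.6% lower, and 36.9% higher and 25.8% lower. Rps6ka6, an RSK family kinase of the S6 kinases left out by the rule, had 10.43, 10.53 and 10.36 in the arrays titled iPS-derived NSC, 6.03, 6.10 and 5.91 in those titled iPS, and 8.66, 8.63, 8.57 and 8.20 in brain NSC. All 3 groups of Rps6ka6 stood apart, and it rose by 4.43 ± 0.12 over the arrays titled iPS and by 1.93 ± 0.12 over brain NSC. Between the arrays titled iPS and brain NSC its difference was -2.50 ± 0.12. Its relative Rps6ka3 changed by -2.63 ± 0.13 and -3.27 ± 0.12, and the mTOR inhibitor Deptor rose by 1.65 ± 0.14 and 2.03 ± 0.13.

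The proteins of the mitochondrial ribosome are encoded by another set of nuclear genes. Of 76 measured, 45 were higher and 13 lower over the arrays titled iPS, with 8 and 2 called, and 43 were higher and 12 lower over brain NSC, with 8 and 1 called. Among all genes, 34.6% were higher and 26.6% lower in the first comparison, with 10.8% and 14.4% called. In the second, 36.9% were higher and 25.8% lower, with 11.3% and 14.0% called. Mrps6, a small-subunit protein, changed by -2.70 ± 0.11 and -2.28 ± 0.10, and Mrpl46 rose by 1.43 ± 0.09 and 1.35 ± 0.09. Mrpl1 rose by 1.48 ± 0.14 and 1.16 ± 0.13 on its brightest probe set, but another of nearly the same brightness gave 0.02 ± 0.12 and -0.002 ± 0.116, and it becomes the brightest when any 1 of the arrays titled iPS-derived NSC is left out. In the arrays titled iPS over brain NSC 11 were higher and 7 lower, with 0 called, where 11.1% and 9.29% of all genes were higher and lower. The share of all genes called there was 1.84%.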

How the data were processed

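The deposited table gives a log2 value for each probe set, computed with RMA per the submitters' processing notes. The version of RMA is not given in the sources used. This method is meant to equalise the distributions of arrays, so a shift shared by most genes can be removed from the deposited log2 values. The deposited values were still not equal in distribution. The median of all genes was 6.65 to 6.66 in the arrays titled iPS-derived NSC, 6.75 to 6.78 in those titled iPS and 6.72 to 6.81 in brain NSC. The table held 45101 probe sets, of which 34945 had 1 platform symbol. Symbols were placed through a RefSeq table of GRCm38.p6. Scanner files and scan dates were not used here.

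Differences were fitted with limma 3.58.1 (lmFit and eBayes) in R 4.3.3, over 18193 genes and all 10 arrays in a layout of 3 groups, with 7 residual and 5.95 prior degrees of freedom, and Benjamini-Hochberg adjustment over all genes. The fit was tested on simulated data. A separate fit of probe sets, with its own adjustment, gave the values of a gene's other probe sets. Figures were drawn with matplotlib 3.10.9, and tables handled with pandas 2.3.3 and numpy 2.4.6 under Python 3.11.15. Arrays carry no read depth, so the number of arrays limits the precision. The labels give replicate numbers but no separate cultures or animals, so p values measure the spread between these samples, which may be technical.

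The members and the 7 context lists (195 of 208 entries measured) were chosen with earlier results of these data known. The text names every paralogue and its parent, the 5 largest rises and falls past the threshold among core members, the 3 brightest and 3 dimmest members, the stalk genes, and the 2 called genes with the largest difference in each list and comparison. It also names 4 genes that check the labels. A rule for members whose probe sets were called in opposite directions found no member. Results were recomputed under 20 other settings, among them other probe set choices, normalizations, array weights, a replicate block and leaving out each array.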

Additional observations from a re-analysis of the deposited data

Results flagged for a closer look

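In the 4 brain NSC arrays, 1 array stood apart from the other 3 in 3 of the 46 named genes tested, by Dixon's test of the gap to the nearest array over the whole range; chance gives about 1 in 20. Rpl6 had 13.783 in replicate 4, below the others at 14.047 to 14.101. Rpl7a had 14.452 in replicate 2, above the others at 14.384 to 14.390, a gap that is small on the log2 scale. Eif5a2 had 8.843 in replicate 1, above the others at 8.667 to 8.695. The Rpl6 difference in the arrays titled iPS over brain NSC was -0.27 with all arrays and -0.34, past the threshold, without replicate 4. The cause was not tested.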

How the results depend on the processing

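Across the 20 planned settings, the called members Rps4l, Rpl39l, Rpl7l1 and Rpl12 kept their calls in both comparisons of the arrays titled iPS-derived NSC. In those over the arrays titled iPS, median centring gave a core median of 0.146. Over brain NSC, the mean of all probe sets of a gene gave 27 members past the adjusted p (15 as reported) and a core median of 0.138, leaving out probe sets that can bind related sequences gave 0.130, and median centring 0.188. In the arrays titled iPS over brain NSC, where 0 were called and 1 passed, 1 was called without such probe sets (Rps24), with array weights or without brain NSC replicate 4 (Rpl27a in both). There 7 passed with the mean of probe sets, 4 without probe sets that can bind related sequences, 2 without dim genes, 2 after quantile normalization, 10 with array weights and 8 with a trended robust prior. Core medians over the 33 genes of at least 12, a setting chosen after seeing the data, were 0.01, 0.07 and 0.05. Leaving out each array in turn gave 4 to 5, 4 to 5 and 0 to 1 members called, 11 to 16, 10 to 15 and 0 to 7 past the adjusted p, and core medians of 0.02 to 0.05, 0.07 to 0.09 and 0.05 to 0.08, in the order of comparisons above.

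Replicate numbers are shared between groups, but same-numbered arrays did not deviate together (correlations of -0.21 to 0.13), so the pairing rests on a number alone. With the replicate number as a block, 5, 4 and 1 members were called and 12, 14 and 6 passed. The call gained over the arrays titled iPS, and that between those and brain NSC, was Rpl27a, and the call lost over brain NSC was Rps25 (0.89, under 2-fold). The block leaves brain NSC replicate 4, the only array of its number, without weight in the differences.

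Among values for single named genes, 61 changed sign, 51 of them with no adjusted p under 0.05 as reported or in the other setting. The mean of probe sets gave, over the arrays titled iPS, -0.39 for Rpl22, -0.40 for Eif4ebp2 and 0.16 for Rps4x. In the same arrays over brain NSC it gave -0.26 for Rpl22, 0.28 for Rps4x and 0.37 for Rps9. In the arrays titled iPS over brain NSC it gave 0.24 for Rps9, 0.0011 for Eif1a, 0.023 for Noc3l, 0.036 for Rpl7l1 and -0.018 for Rps29. Without probe sets that can bind related sequences, where another probe set stands for the gene, Rps9 was at 1.29 in the arrays titled iPS-derived NSC and 0.56 in those titled iPS, both over brain NSC. Median centring gave 0.038 for Rps27, 0.022 for Rps29 and 0.042 for Rps4x over the arrays titled iPS, 0.067 for Rps2, 0.056 for Rps29 and 0.073 for Rps4x over brain NSC, and -0.0033 for Rps19 in the arrays titled iPS over brain NSC. Quantile normalization gave -0.076 for Rpl3l and 0.15 for Rps27 over the arrays titled iPS, and -0.044 for Rps15, -0.064 for Rps19 and -0.0068 for Rps27l in those over brain NSC. Array weights gave -0.0075 for Rpl3l over the arrays titled iPS and -0.012 for Rps25 in those over brain NSC. The replicate block gave -0.027 for Rps19, -0.044 for Rps25 and -0.0078 for Zfp42 in the arrays titled iPS over brain NSC.

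Leaving out 1 array gave Mrpl1 values of -0.019 to 1.53 over the arrays titled iPS and -0.040 to 1.22 over brain NSC. It reversed without replicate 2 of the iPS-derived NSC titles in both (-0.019 and -0.040) and without replicate 1 over brain NSC (-0.004), since a different probe set is then its brightest. Sign changes also fell within the ranges over the arrays titled iPS for Rpl39 (-0.023 to 0.13), Rpl3l (-0.024 to 0.14), Rps2 (-0.0054 to 0.026) and Rps29 (-0.12 to 0.025), and over brain NSC for Rpl39 (-0.040 to 0.070) and Rps16 (-0.031 to 0.25). In the arrays titled iPS over brain NSC they did for Rpl39 (-0.10 to 0.050), Rps15 (-0.011 to 0.035), Rps19 (-0.027 to 0.050), Rps25 (-0.044 to 0.22), Rps27l (-0.0088 to 0.047), Rps29 (-0.078 to 0.057), Rps4l (-0.021 to 0.21) and Zfp42 (-0.013 to 0.11). Of the other values for single named genes, 2516 kept direction and side of the threshold, 101 lost the threshold and 64 gained it.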
